A study of Mus musculus with 12 samples.

Results

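The 10 genes described here handle iron and heme in macrophages: the exporter Slc40a1, the heme oxygenase Hmox1, the scavenger receptor Cd163, the phagosomal transporter Slc11a1, the transferrin receptor Tfrc, the ferritin subunits Fth1 and Ftl1, the heme transporter Slc48a1, the biliverdin reductase Blvrb and the hormone Hamp. They were chosen by name, and all 10 were found among the 40840 genes listed for each of the 12 libraries. The libraries came from the immune cell fraction of the liver of male mice, 3 mice in each of 4 groups. WT mice were of the strain C57BL/6, and Casp11-/- mice carried the germline allele of the strain B6.129S4(D2)-Casp4tm1Yuan/J. Mice 8 to 10 weeks old at the start ate either normal chow diet (NCD) or high-fat diet (HFD) for 12 weeks, and a group is named by genotype and diet, from WT-NCD to Casp11-/- HFD. The fraction was enriched by density and not sorted, so each value is a bulk value.

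Macrophages of the liver take up senescent red cells and hemoglobin, split heme, store the iron in ferritin and return it to the blood through ferroportin, the product of Slc40a1. Hepcidin, the peptide encoded by Hamp and made mainly by hepatocytes, binds ferroportin and leads to its degradation. Iron regulatory proteins bind hairpins called iron-responsive elements (IREs) in ferritin, ferroportin and transferrin receptor transcripts, and these hairpins tie translation or RNA stability to the iron content of the cell. Transcript levels therefore give only part of the regulation of these genes.

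The hairpins are shown because they set these transcripts apart from the other members. A search of the longest coding transcript of each gene (GENCODE vM21, build GRCm38) for C, 5 bases, CAGTGN and 5 bases that can pair with the first 5 (G-U pairs allowed) matched 271 of 21877 genes, or 1.24%. For the members every coding transcript was searched, a wider search than that behind the 1.24%. Of these, 4 of 10 members held a match, each in an untranslated region. Windows of 30 bases are printed 5′ to 3′ in transcript sense, with the 6-base loop in capitals. Ftl1 (chr7:45459779-45459808, minus strand), Fth1 (chr19:9982731-9982760, plus strand) and Slc40a1 (chr1:45925465-45925494, minus strand) carried a single match in the 5′ UTR, and Tfrc carried 4 in the 3′ UTR, of which that at chr16:32631709-32631738 (plus strand) is printed. A match describes the letters and does not show that a protein binds there.
Fth1: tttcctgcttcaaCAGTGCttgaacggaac
Ftl1: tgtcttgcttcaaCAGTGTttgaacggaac
Slc40a1: ccaacttcagctaCAGTGTtagctaagttt
Tfrc: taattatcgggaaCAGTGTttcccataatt

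Values were in TPM, a transcript abundance scaled by gene length and by the library total, with a floor at 1.007, the lowest value in every library, and the read depth behind them is unknown. WT-NCD replicate 3 stood apart from the other 11 libraries: its Pearson correlations with them over all genes lay between -0.27 and -0.07, and 39677 genes lay above its floor against 12940 to 18775 elsewhere. The tests of the 10 members are therefore given with and without it. The genotype could not be checked from Casp4, the gene that encodes caspase-11. Its level in WT mice was 12.1, 15.6 and 8.94 TPM on NCD and 7.09, 5.597 and 11.4 TPM on HFD. Casp11-/- mice had 4.93, 2.56 and 15.2 TPM on NCD and 2.78, 8.68 and 4.73 TPM on HFD, and Casp11-/- NCD replicate 3 and Casp11-/- HFD replicate 2 lay within the WT range. A value per gene counts all of its exons, including any that the allele leaves in place, so genotypes are those of the labels. The small nucleolar RNA U3 took 25.8% to 58.5% of all TPM on HFD and 0.03% to 4.85% on NCD, and protein-coding genes took 14.5% to 42.4%.

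Slc40a1 had the largest diet difference of the members over both genotypes on log2(TPM + 1). Its level in WT mice was 23.9, 13.1 and 3.82 TPM on NCD and 168.3, 70.5 and 114.9 TPM on HFD. In Casp11-/- mice it was 18.6, 25.7 and 23.1 TPM on NCD and 87.3, 58.3 and 85.3 TPM on HFD. All 6 HFD libraries lay above all 6 NCD libraries. The mean over 6 libraries was 18.0 ± 8.32 TPM (SD) on NCD and 97.5 ± 39.6 TPM on HFD. Over both genotypes the log2 fold change was 2.48 (SE 0.42, n = 6 against 6, limma, adjusted p = 0.033), a fold of 5.57 on the log2(TPM + 1) scale. Without WT-NCD replicate 3 it was 2.15 (SE 0.35, adjusted p = 0.000243). In WT mice alone the log2 fold change was 3.23 (SE 0.59, adjusted p = 0.079), and 2.58 without that replicate (SE 0.52, adjusted p = 0.00435), a call that was lost when WT-NCD replicate 2 (adjusted p = 0.291) or WT-HFD replicate 1 (adjusted p = 0.0539) was left out as well. In Casp11-/- mice alone it was 1.72 (SE 0.59, adjusted p = 0.538), with an adjusted p of 0.0675 when WT-NCD replicate 3 was left out of the shared spread. The call with all 12 libraries was lost when any of 9 libraries was left out, with adjusted p up to 0.111, whereas after removal of WT-NCD replicate 3 it was kept on leaving out any of the other 11, with adjusted p from 0.000253 to 0.00591.

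**Figure D1:**
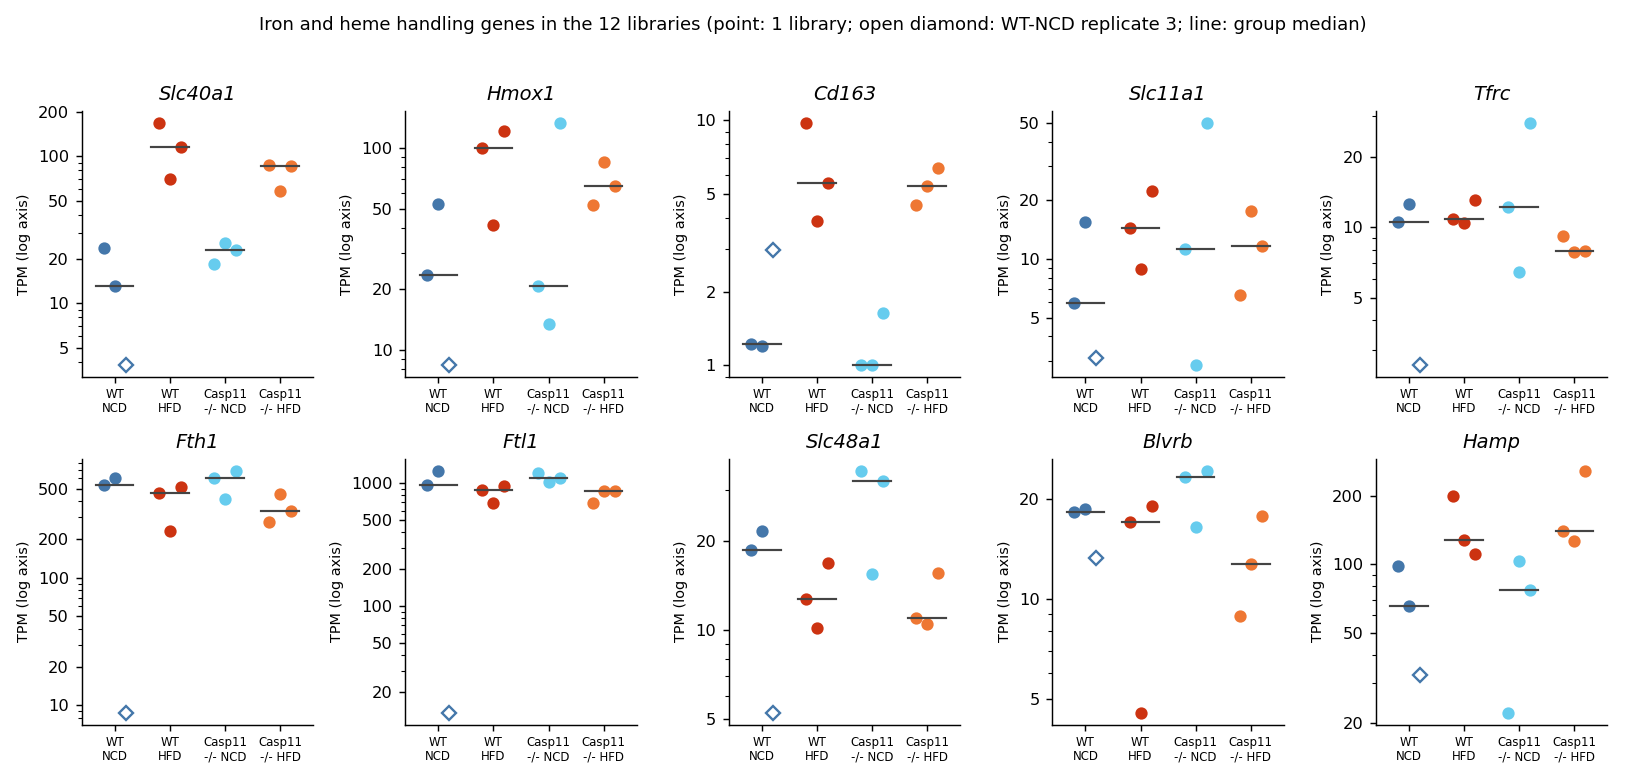
TPM of the 10 members (log axis) in each library of the 4 groups. Points are libraries, the open diamond is WT-NCD replicate 3 and the line is the group median. HFD points of Slc40a1, Cd163 and Hamp lie above all NCD points, and the ferritin points lie between 232.2 and 1262 TPM except for the diamond at 8.81 and 13.7 TPM.

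Cd163, the receptor for hemoglobin bound to haptoglobin, followed the same order at a far lower level. In WT mice it was listed at 1.22, 1.21 and 2.95 TPM on NCD and at 9.76, 3.87 and 5.58 TPM on HFD. In Casp11-/- NCD it was at the floor in 2 libraries and at 1.64 TPM in the other, and in Casp11-/- HFD it was at 4.50, 5.39 and 6.38 TPM. The diets did not overlap. The log2 fold change over both genotypes was 1.46 (SE 0.31, adjusted p = 0.077) with all 12 libraries and 1.60 (SE 0.31, adjusted p = 0.00176) without WT-NCD replicate 3. That call was kept on leaving out any further library, with adjusted p from 0.000963 to 0.0253. Because NCD values lay near the floor, the size of the change depended on the pseudocount: with 0.1 in place of 1 and all 12 libraries it was 1.94. Within a genotype the adjusted p was at or above 0.0633 in both fits.

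Hmox1, which opens the heme ring and releases its iron, carbon monoxide and biliverdin, varied widely between mice, most of all in Casp11-/- NCD. In WT mice it was at 23.6, 52.6 and 8.44 TPM on NCD and 100.1, 41.5 and 120.6 TPM on HFD. The highest value of all was in Casp11-/- NCD, where it was at 20.6, 13.4 and 132.4 TPM, and Casp11-/- HFD libraries had 52.1, 85.4 and 64.8 TPM. The diets overlapped in both genotypes. The log2 fold change over both genotypes was 1.38 (SE 0.61, adjusted p = 0.291), and 1.05 (SE 0.47, adjusted p = 0.109) without WT-NCD replicate 3. Leaving out Casp11-/- NCD replicate 3 as well gave 1.54 with an adjusted p of 0.019. Slc40a1, Cd163 and Hmox1 are genes that the study itself picked as macrophage markers on these samples, so their direction is not independent evidence.

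Hamp was at 98.3, 65.2 and 32.7 TPM in WT mice on NCD and at 199.1, 127.5 and 110.6 TPM in those on HFD. In Casp11-/- mice it was at 22.3, 103.6 and 77.4 TPM on NCD and 139.8, 126.4 and 257.3 TPM on HFD. All 6 HFD libraries again lay above all 6 NCD libraries. The log2 fold change over both genotypes was 1.38 (SE 0.48, adjusted p = 0.21) with 12 libraries and 1.17 (SE 0.40, adjusted p = 0.0464) without WT-NCD replicate 3. The latter call was kept in only 2 of the 11 fits that left out a further library, those without WT-HFD replicate 3 (adjusted p = 0.0374) and without Casp11-/- NCD replicate 2 (adjusted p = 0.00723), and the adjusted p reached 0.215 in the others. Hepatocyte markers, the transcripts of the usual source of Hamp, were high on both diets: the 10 markers summed to between 6689 and 25100 TPM on NCD without WT-NCD replicate 3, to 82.7 TPM in that replicate and to between 9452 and 19380 TPM on HFD. Whether Hamp reads came from hepatocytes was not tested. The paralog Hamp2, whose coding sequence was 80.6% identical to that of Hamp over 247 aligned bases, was at 1.01 to 30.5 TPM in 11 libraries and at 99.8 TPM in Casp11-/- HFD replicate 3, which also held the highest Hamp level, and reads could be shared between the copies.

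The ferritin subunits were the most abundant members by far. Fth1, the heavy subunit that oxidizes iron, was at 532.5, 602.7 and 8.81 TPM in WT mice on NCD and 458.6, 232.2 and 518.9 TPM in those on HFD. Levels in Casp11-/- mice were 607.8, 415.2 and 689.2 TPM on NCD and 275.6, 450.5 and 330.8 TPM on HFD. Ftl1, the light subunit that favors the iron core, was at 964.1, 1262 and 13.7 TPM in WT mice on NCD and 878.5, 684.7 and 956.9 TPM in those on HFD. It was at 1211, 1015 and 1097 TPM in Casp11-/- NCD and 686.6, 860.9 and 870.7 TPM in Casp11-/- HFD. The direction of both depended on WT-NCD replicate 3. With it the log2 fold changes over both genotypes were 0.34 (SE 0.98) for Fth1 and 0.60 (SE 1.13) for Ftl1, and without it they were -0.63 (SE 0.39, adjusted p = 0.228) and -0.43 (SE 0.40, adjusted p = 0.399). Without that replicate every HFD library had less Ftl1 than every NCD library, as 5.6% of the genes tested did. Ferritin made up 71.5% to 92.7% of the summed TPM of the 10 members in 11 libraries and 23.8% in WT-NCD replicate 3. The pseudogene Ftl1-ps2, 97.8% identical to the Ftl1 coding sequence, was at 12.9 to 31.1 TPM, so shared reads could change Ftl1 by little except in WT-NCD replicate 3, where the pseudogene had 14.2 TPM.

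The importers did not separate the diets on TPM. Tfrc, which brings in transferrin-bound iron, was at 10.5, 12.6 and 2.58 TPM in WT mice on NCD and 10.9, 10.5 and 13.1 TPM in those on HFD. Levels in Casp11-/- mice were 12.2, 6.42 and 27.9 TPM on NCD and 9.21, 7.82 and 7.90 TPM on HFD. Its log2 fold change over both genotypes was -0.01 (SE 0.42, adjusted p = 0.992), and -0.31 (SE 0.37, adjusted p = 0.494) without WT-NCD replicate 3. Slc11a1 (NRAMP1), which moves metal ions out of the phagosome, was at 5.97, 15.4 and 3.09 TPM in WT mice on NCD and 14.5, 8.86 and 22.4 TPM in those on HFD. Casp11-/- mice had 11.3, 2.86 and 50 TPM on NCD and 6.54, 17.7 and 11.6 TPM on HFD. The log2 fold change was 0.41 (SE 0.61, adjusted p = 0.625), and 0.18 (SE 0.50, adjusted p = 0.765) without that replicate. Casp11-/- NCD replicate 3 had the highest level of Hmox1, Slc11a1, Tfrc and Fth1 of all libraries.

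Slc48a1 (HRG1), which carries heme out of the phagolysosome, was at 18.7, 21.7 and 5.27 TPM in WT mice on NCD and 12.8, 10.2 and 17.0 TPM in those on HFD. Levels in Casp11-/- mice were 34.7, 15.5 and 32.2 TPM on NCD and 10.99, 10.5 and 15.7 TPM on HFD. The log2 fold change over both genotypes was -0.52 (SE 0.38, adjusted p = 0.518), and -0.81 (SE 0.34, adjusted p = 0.0909) without WT-NCD replicate 3. Blvrb, a reductase of biliverdin and flavins that is abundant in red cells, was at 18.2, 18.7 and 13.3 TPM in WT mice on NCD and 17.1, 4.57 and 19.1 TPM in those on HFD. Casp11-/- mice had 23.3, 16.5 and 24.3 TPM on NCD and 8.88, 12.8 and 17.8 TPM on HFD. For Blvrb the log2 fold change was -0.58 (SE 0.36, adjusted p = 0.441), and -0.66 (SE 0.38, adjusted p = 0.198) without that replicate. The diets overlapped for both genes. The 10 erythroid markers summed to between 868.7 and 18030 TPM on NCD without WT-NCD replicate 3, to 122.1 TPM in that replicate and to between 282.7 and 768.1 TPM on HFD, and Slc4a1, Klf1, Epor and Ermap were at the floor in every HFD library. Their part in the values of Blvrb and Slc48a1 was not tested.

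Over both genotypes with all 12 libraries, 1 of 10 members passed the test as higher on HFD, beside 0.041% of the 19498 genes tested, and 0 of 10 as lower, beside 0.513%. Unadjusted p was under 0.05 for 4 higher members, and for 326 higher and 2956 lower of the 19498 genes. After removal of WT-NCD replicate 3, 3 of 10 were higher (Slc40a1, Cd163 and Hamp), beside 1.07% of 17950 genes, and 0 of 10 were lower, beside 17.3%. In WT mice 0 of 10 passed with all 12 libraries, beside 0.0103% of genes called higher and 0.103% lower. There 2 members had an unadjusted p under 0.05, as did 134 higher and 1223 lower of the 19498 genes. With WT-NCD replicate 3 removed, Slc40a1 alone of the 10 passed in WT mice, beside 0.134% of genes higher and 2.04% lower. In Casp11-/- mice 0 of 10 passed in the fit of all 12 libraries, and 0 of 19498 genes were called in either direction. An unadjusted p under 0.05 was found for 3 higher members, beside 222 genes higher and 1431 lower. Without WT-NCD replicate 3 the members that passed again numbered 0 of 10, beside 0.117% of genes higher and 0.986% lower. The median log2 fold change over both genotypes was 0.51 for the members and -0.61 for all genes with 12 libraries, and -0.06 and -0.39 without WT-NCD replicate 3. Members in which all HFD libraries exceeded all NCD libraries were 3 of 10 (Slc40a1, Cd163 and Hamp), against 0.231% of genes, and the same 3 against 0.39% without that replicate.

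**Figure D2:**
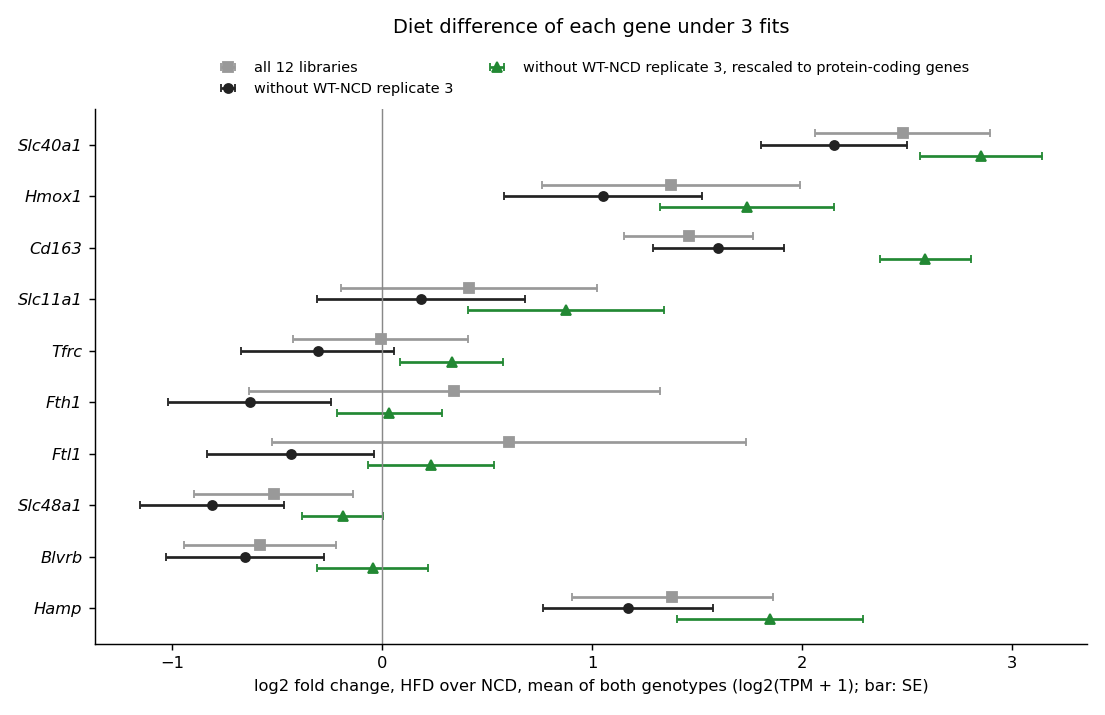
Log2 fold change of each member, HFD over NCD, as the mean of both genotypes on log2(TPM + 1), with bars for the SE. Gray squares use all 12 libraries, black circles leave out WT-NCD replicate 3 and green triangles also rescale to protein-coding genes. Slc40a1 lies between 2.15 and 2.85 in the 3 fits, while Fth1 lies at 0.34, -0.63 and 0.03.

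Since a few noncoding RNAs took different shares of the libraries by diet, the comparison was repeated on TPM rescaled to the sum of protein-coding genes. Without WT-NCD replicate 3, the median log2 fold change over both genotypes was -0.39 on TPM, over 17950 genes of all types. On rescaled values it was -0.06, over 12368 protein-coding genes, so the 2 medians cover different sets of genes. Slc40a1 was then at 33.9 to 112.8 rescaled TPM on NCD and 244.3 to 673.6 on HFD (log2 fold change 2.85, SE 0.29, adjusted p = 0.000287). Cd163 was at 2.69 to 4.42 rescaled TPM on NCD and 21.7 to 39.1 on HFD (log2 fold change 2.59, SE 0.22, adjusted p = 7.79e-05). Both ends of that NCD range were floor values, those of Casp11-/- NCD replicates 1 and 2. The size of the Cd163 change on this scale, over both genotypes and in Casp11-/- mice, therefore rests partly on the floor. Hmox1 (log2 fold change 1.74, SE 0.41, adjusted p = 0.0186) and Hamp (log2 fold change 1.85, SE 0.44, adjusted p = 0.0193) also passed, so 4 of 10 members were higher, beside 8.1% of 12368 genes, and 0 of 10 lower, beside 6.5%. Within Casp11-/- mice Slc40a1 (log2 fold change 2.33, SE 0.39, adjusted p = 0.0181) and Cd163 (log2 fold change 2.46, SE 0.29, adjusted p = 0.00383) passed on this scale, where the change of Cd163 was the larger, 2 of 10 members beside 2.63% of genes higher, with 0 of 10 lower beside 0.897%. The same genes passed in WT mice, with log2 fold changes of 3.37 (SE 0.43) for Slc40a1 and 2.72 (SE 0.32) for Cd163, again 2 of 10 members, beside 0.606% of genes higher and 0.348% lower. The ferritin subunits lay near 0, at 0.03 (SE 0.25) for Fth1 and 0.23 (SE 0.30) for Ftl1. With all 12 libraries 3 of 10 members (Slc40a1, Cd163 and Hmox1) passed as higher over both genotypes on the rescaled values, beside 2.4% of 12796 genes, and 0 of 10 as lower, beside 1.21%. All HFD libraries exceeded all NCD libraries in 2 of 10 members on this scale, Slc40a1 and Cd163, beside 2.13% of genes (3.88% without WT-NCD replicate 3). Hamp no longer separated the diets, since it reached 454.7 rescaled TPM on NCD and began at 430.7 on HFD. In WT mice alone 7 of 10 members were higher in every HFD library, beside 13.9% of genes (31.8% without that replicate), and these included both importers. Tfrc was there at 17.8 to 32.7 rescaled TPM on NCD and 43.6 to 65.5 on HFD (log2 fold change 0.99, SE 0.38, adjusted p = 0.269). Slc11a1 was at 17.2 to 40.0 rescaled TPM on NCD and 55.45 to 87.1 on HFD (log2 fold change 1.38, SE 0.62, adjusted p = 0.315). Neither passed, and without WT-NCD replicate 3 the adjusted p was 0.29 for Tfrc and 0.317 for Slc11a1.

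Markers of Kupffer cells, the resident macrophages of the liver, were also higher on HFD. The 10 Kupffer cell markers summed to between 46.7 and 99.3 TPM on NCD and between 246.2 and 869.4 TPM on HFD. Of these markers, 6 of 10 were called higher on HFD with all 12 libraries, beside 0.041% of genes, and 10 of 10 without WT-NCD replicate 3, beside 1.07%. With all 12 libraries none of the 10 was at the floor throughout either diet. Without that replicate Marco was at the floor in every NCD library, so it entered the fit only through HFD libraries. The study itself listed Clec4f, Cd5l, C1qb, Folr2, Marco and Fcna as raised on HFD in these samples, so these calls are not independent evidence. Expressed as a percentage of the Kupffer cell marker sum, Slc40a1 was at 22.7% to 55.0% on NCD without WT-NCD replicate 3, at 4.34% in that replicate, and at 16.0% to 28.7% on HFD. Relative to the Kupffer cell markers, Slc40a1 was therefore not higher on HFD. Cd163 was at 1.65% to 2.16% of the sum on NCD without that replicate, at 3.35% in it, and at 0.776% to 1.85% on HFD. Hmox1 was at 28.8% to 133.4% on NCD without that replicate, at 9.59% in it, and at 11.5% to 29.3% on HFD. Hamp was at 42.1% to 221.9% on NCD without that replicate, at 37.15% in it, and at 15.4% to 54.0% on HFD. In a bulk fraction, more cells of a type and more RNA per cell cannot be told apart. Markers shared by all macrophages overlapped between diets, with sums of 371.8 to 3915 TPM on NCD without WT-NCD replicate 3, 49.6 TPM in that replicate and 423.1 to 1406 TPM on HFD. Lyz2 alone was at 292.8 to 3500 TPM in the 11 libraries other than that replicate, so these sums mostly follow 1 gene. Of the 8 markers, 0 were called with all 12 libraries. Without that replicate 1 was called higher on HFD, beside 1.07% of genes, and 0 lower, beside 17.3%. Without WT-NCD replicate 3, 6 of 6 B cell markers, 5 of 8 T and NK cell markers and 5 of 5 erythroid markers tested were called lower on HFD, beside 17.3% of genes, and 6 of 8 endothelial markers were called higher, beside 1.07%. With all 12 libraries 0 genes of these 4 lists were called. The fraction labelled as hepatic macrophages thus also held transcripts of other cells, and their part in the members' values was not tested.

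**Figure D3:**
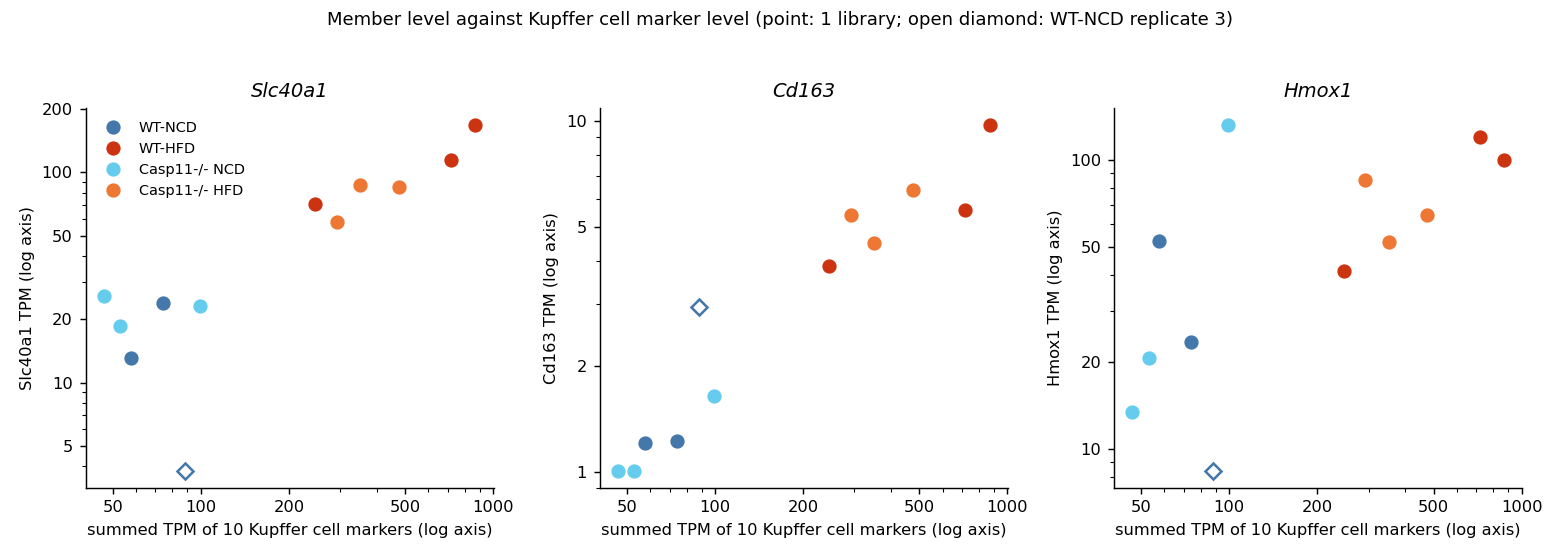
TPM of Slc40a1, Cd163 and Hmox1 (log axes) against the summed TPM of 10 Kupffer cell markers in the 12 libraries, colored by group, with WT-NCD replicate 3 as an open diamond. HFD libraries lie above 246 TPM on the horizontal axis and NCD libraries below 100, and the highest Hmox1 point, 132.4 TPM, is a Casp11-/- NCD library with 99.3 TPM of markers.

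Ratios within a library do not depend on its total. Slc40a1 was 0.828 to 4.01 times Tfrc on NCD and 6.74 to 15.5 times on HFD, and these ranges, which include WT-NCD replicate 3, did not overlap. Against the heme transporter Slc48a1, Slc40a1 was 0.537 to 1.66 times on NCD and 5.45 to 13.2 times on HFD, again without overlap. Against Csf1r, the receptor that macrophages need for survival, Slc40a1 was 0.0956 to 1.5 times on NCD and 1.03 to 2.52 times on HFD, and these ranges overlapped. Slc40a1 reached 2.17% to 6.19% of Fth1 in 5 NCD libraries and 12.95% to 36.7% on HFD, but 43.3% in WT-NCD replicate 3, where ferritin was low. The ratio of Ftl1 to Fth1 lay between 1.56 and 2.95 in all 12 libraries and overlapped between diets. TPM is scaled per length, so these ratios compare levels between genes.

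**Figure D4:**
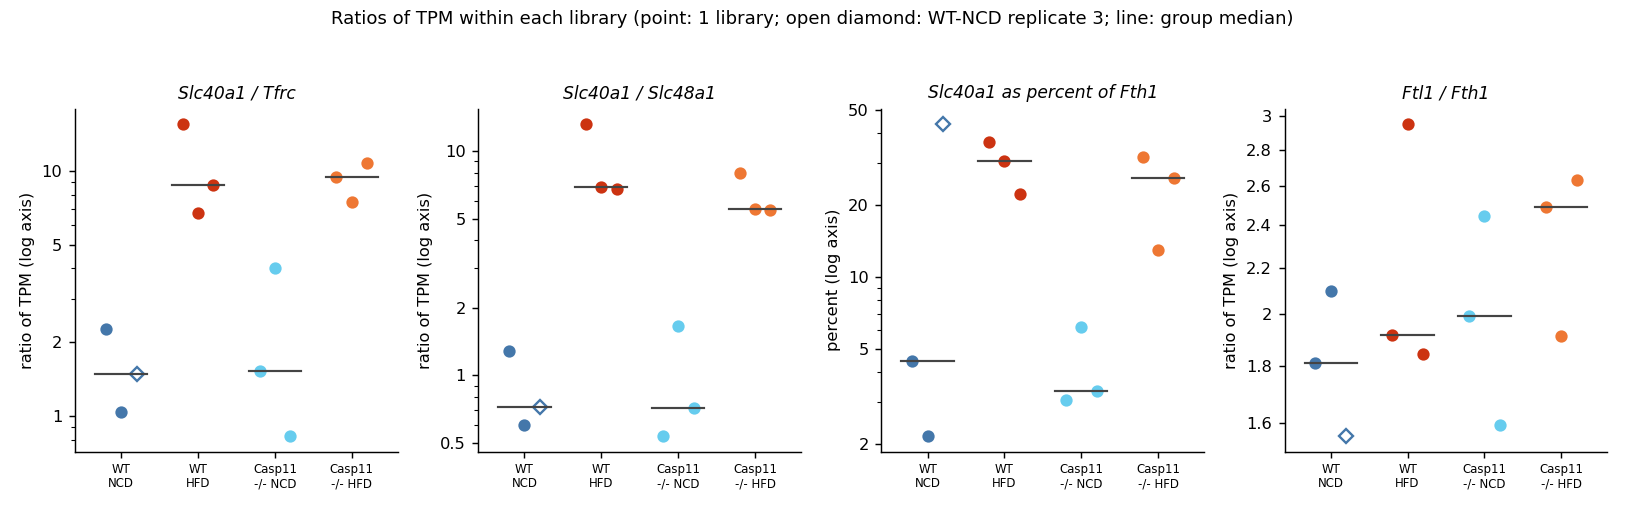
Ratios of TPM within each library by group (log axes), with the group median as a line and WT-NCD replicate 3 as an open diamond. Slc40a1 relative to Tfrc and to Slc48a1 separates HFD from NCD in both genotypes, and the ratio of Ftl1 to Fth1 does not.

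No member passed the test between genotypes. On NCD, 0 of 10 members were called with all 12 libraries, as were 0 of 19498 genes (0 members and 293 genes had an unadjusted p under 0.05). Slc48a1 had the smallest p (log2 fold change 0.94 in Casp11-/- over WT, SE 0.53, adjusted p = 0.553), and with WT-NCD replicate 3 left out it was Hamp (-0.49, SE 0.60, adjusted p = 1), with 0 of 10 members called beside 0% of genes higher and 0.0557% lower. On HFD 0 of 10 members and 0 of 19498 genes were called, with 0 members and 30 genes at an unadjusted p under 0.05 (135 genes without WT-NCD replicate 3, where again none was called). Slc40a1 had the smallest p (log2 fold change -0.54, SE 0.59, or 0.46 without that replicate, adjusted p = 1 in both). Tfrc was lower in every Casp11-/- HFD library than in every WT-HFD library, as were 2.87% of the genes tested (3.11% without WT-NCD replicate 3), and did not pass (log2 fold change -0.42, SE 0.59). For the interaction of diet and genotype, 0 of 10 members and 0 of 19498 genes were called, with 0 members and 154 genes at an unadjusted p under 0.05. Slc40a1 again had the smallest p, with an interaction of -1.51 (SE 0.83, adjusted p = 0.78) and of -0.86 (SE 0.70, adjusted p = 1) without WT-NCD replicate 3, where 0 of 10 members were called beside 0.00557% of genes higher and 0% lower. A difference of the diet response between genotypes was thus not detected for any member.

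The other genes of iron and heme metabolism, 56 in 7 lists, were compared in the same fits. With all 12 libraries 0 of 53 genes tested passed over both genotypes. An unadjusted p under 0.05 was found for 6 of them, beside 326 higher and 2956 lower of all 19498 genes. In the fit of 11 libraries, 4 of 52 genes tested passed over both genotypes, all of them lower on HFD, and 0 of 52 passed within a genotype. In WT mice 5 of the 52 had an unadjusted p under 0.05, beside 171 higher and 2563 lower of 17950 genes. In Casp11-/- mice 11 of the 52 did, beside 492 higher and 4353 lower of 17950 genes. Pcbp1 and Pcbp2, chaperones that hand iron to ferritin and also bind RNA, fell by 1.09 (SE 0.37, adjusted p = 0.0439) and 1.27 (SE 0.37, adjusted p = 0.0261) on the log2 scale, and they were 2 of 12 genes of iron import and intracellular transport. Keap1, which marks the transcription factor NRF2 for degradation, fell by 1.11 (SE 0.36, adjusted p = 0.037), 1 of 6 transcription factor genes. These calls stand beside 17.3% of all genes called lower, and their number depended on which further library was left out. Leaving out Casp11-/- NCD replicate 2 as well raised it from 4 to 17. The share of all genes called in that fit is not given here, so the rise is not read as particular to these genes.

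In the list of export, ferroxidases and the hepcidin axis, 7 of 8 genes were higher without WT-NCD replicate 3 and 0 passed. The smallest p belonged to Bmp2 (1.25, SE 0.46, adjusted p = 0.0562) and Bmp6 (1.05, SE 0.40, adjusted p = 0.0623), endothelial ligands that induce hepcidin in hepatocytes. For heme uptake and breakdown these were Hmox2 (-0.74, SE 0.37, adjusted p = 0.152) and Lrp1 (-0.54, SE 0.35, adjusted p = 0.243), for iron sensing Aco1 (-0.48, SE 0.33, adjusted p = 0.273) and Ncoa4 (-0.16, SE 0.35, adjusted p = 0.71), and for NRF2 target enzymes Slc7a11 (0.87, SE 0.40, adjusted p = 0.113) and G6pdx (-0.92, SE 0.43, adjusted p = 0.125). Rescaled to protein-coding genes, 11 of 52 passed, 10 of them higher, beside 8.1% of the protein-coding genes tested higher and 6.5% lower. The higher genes included 6 of 8 of the export and hepcidin list: Bmp6 (1.81, SE 0.39), Bmp2 (1.96, SE 0.51), Hfe (1.14, SE 0.26), Hamp2 (2.29, SE 0.71) and the ferroxidases Heph (0.98, SE 0.26) and Cp (1.43, SE 0.44). The other 4 were Slc39a8, a zinc and iron importer (1.74, SE 0.33), the transporter Abcg2 (1.01, SE 0.25), the nuclear receptor gene Nr1h3 (1.17, SE 0.24) and the cystine transporter Slc7a11 (1.68, SE 0.45). Pcbp1, Pcbp2 and Keap1 did not pass. Before rescaling, Heph lay near the floor, at 1.01 to 1.59 TPM on NCD without WT-NCD replicate 3 and 1.01 to 2.82 TPM on HFD. Hamp2 was at 99.8 TPM in Casp11-/- HFD replicate 3 and at 1.27 to 10.4 TPM in the other HFD libraries. Rescaling lifts the floor more where protein-coding genes take a smaller share. That share was 15.7% to 25.2% on HFD and 22.3% to 42.4% on NCD without WT-NCD replicate 3.

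The genes whose pattern was most like that of a member were sought over the 11 libraries without WT-NCD replicate 3, among the 12796 protein-coding genes that entered the fit, by Pearson correlation of log2(TPM + 1). These libraries differ by diet, and the correlations span both diets. Slc40a1 was nearest to Cd5l (r = 0.98), Vsig4 (0.98), Clec4f (0.96), Iigp1 (0.96) and Folr2 (0.96), of which Cd5l, Vsig4, Clec4f and Folr2 are in the list of Kupffer cell markers. Hmox1 was nearest to Tlr4 (0.97), Slfn5 (0.97), Ifi204 (0.97), Ifi207 (0.96) and Nampt (0.94), none of them in a marker list used here. Hamp was nearest to Enpep (0.96), Mrc1 (0.94), Rgs5 (0.94), Pros1 (0.94) and Cyyr1 (0.93).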

How the data were processed

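Total RNA of the liver immune cell fraction of 12 mice was sequenced with random-primed stranded libraries. Single-end reads were aligned by the authors with STAR to mm10 (GRCm38.p6 in the submitters' notes), and Qlucore Omics Explorer gave TPM. The deposited values, treated here as a score because low values had been raised to a floor of 1.007, summed to between 1000353 and 1022495 per library for 40840 genes. No counts were given, so the depth of each library is unknown, and 6 rows without a gene name per library were left out. The heading for Casp11-/- HFD replicate 2 abbreviates the genotype differently from the other libraries.

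The tests took genes with a value over the floor in 3 or more libraries, on log2(TPM + 1) with limma 3.58.1 in R 4.3.3, with a spread shared by the 4 groups and trended on the mean. The study compared groups by analysis of variance. Tests were two-sided, and p-values were adjusted by the Benjamini-Hochberg method over all genes tested and called under 0.05. HFD was compared with NCD in each genotype and as the mean of both, the genotypes on each diet, and their interaction was tested. The labels name separate mice, 3 in each group. Gene types came from RefSeq (39350 genes matched), and hairpins and identities from GENCODE vM21 with Biopython 1.88. The steps were tested on simulated data. Python 3.11.15, pandas 2.3.3, numpy 2.4.6 and matplotlib 3.10.9 were used.

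The members and lists were chosen with earlier results of these data known. All members are named with their values. In the genotype comparisons only the member of smallest p is named, and also Tfrc on HFD, chosen after its values were seen. Pathway genes are named when called on TPM, or else the 2 of smallest p in each list, and those called higher on rescaled values were added after their values were seen. One called pathway gene and its list are not reported here. The 5 nearest genes were sought for Slc40a1, Hmox1 and Hamp. Alternatives changed the low-value filter, pseudocount (0.1), scaling, library weights, replicate block, spread and libraries. Those that left out WT-NCD replicate 3 together with a further library or with the replicate block were added after seeing the data.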

Additional observations from a re-analysis of the deposited data

Results flagged for a closer look

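WT-NCD replicate 3 was flagged as lying below the other NCD libraries for 3 members, by Dixon's criterion on log2(TPM + 1) among the 6 NCD libraries. Slc40a1 was at 3.82 TPM there against 13.1 to 25.7 TPM in the other 5. Fth1 was at 8.81 TPM against 415.2 to 689.2 TPM, and Ftl1 at 13.7 TPM against 964.1 to 1262 TPM. The gap to the next library, as a fraction of the range, was 0.6255 for Slc40a1, barely over the limit of 0.625. It was 0.881 for Fth1 and 0.9395 for Ftl1. The criterion was applied to 20 sets of libraries (10 members on 2 diets), in which chance alone flags about 1 in 20. Without WT-NCD replicate 3 it marked 0 of 20 sets. No difference of the diet response between genotypes passed its test for any member.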

How the results depend on the processing

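Slc40a1 was higher on HFD in the comparison over both genotypes under all 34 alternatives, with log2 fold changes from 1.95 to 3.50, and was called in 23 of them. Cd163 (33 alternatives, called in 19), Hamp (33, called in 6) and Hmox1 (34, called in 4) were likewise higher in all of theirs. These counts include the alternatives added after seeing the data, all of which left out WT-NCD replicate 3. Without the added ones, Slc40a1 was called in 11 of 22 alternatives and Cd163 in 7 of 21. Hamp was then called in 3 of 21 and Hmox1 in 3 of 22. For the ferritins, Tfrc and Slc11a1 the direction was not stable, and the depth that limits their precision is unknown. Limma's library weights, estimated gene by gene because the default estimate did not converge, gave the most calls: 5 members and 20 pathway genes in WT (beside 13.9% of all genes higher and 35.1% lower), 5 and 24 in Casp11-/- (5.3% and 44%), 6 and 34 over both genotypes (12.2% and 48%), and 1 member between genotypes on NCD, Hamp (-1.59, adjusted p = 0.00853, beside 4.76% higher and 2.63% lower). That Hamp call rested mostly on Casp11-/- NCD replicate 1, the library with the lowest Hamp level. Its weight was 4.55, against 0.201 and 0.281 for Casp11-/- NCD replicates 2 and 3. Rescaling to protein-coding genes gave 1 member in WT (beside 0.0625% of genes higher and 0.0391% lower), and 3 members and 4 pathway genes over both genotypes (2.4% and 1.21%). With WT-NCD replicate 3 also left out, it gave 2 members and 1 pathway gene in WT, 2 and 2 in Casp11-/-, and 4 and 11 over both. The pan-macrophage reference without that replicate gave 1 member in WT (beside 0.15% of genes higher and 1.98% lower), 2 pathway genes in Casp11-/- (0.329% and 2.07%), and 2 members and 4 pathway genes over both (0.618% and 12%). Requiring values above the floor in every library gave 1 pathway gene over both genotypes, and estimating the spread from the compared groups alone gave 1 in Casp11-/-. The shares of all genes called under these 2 choices are not given here.

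Directions turned as follows, in log2 fold change, and the cause was not tested. In WT mice, Slc48a1 became 0.013 with a pseudocount of 0.1, 1.29 after removal of the top 1% of genes, 0.32 on protein-coding genes and 0.12 on these without WT-NCD replicate 3. Blvrb in WT became 0.79 after removal of the top 1% and 0.06 on protein-coding genes without that replicate. Tfrc in WT became -0.28 and -0.045 on the pan-macrophage reference with and without that replicate, and -0.056 with weights. Fth1 and Ftl1 in WT became -0.39 and -0.36 with weights, and -0.61 and -0.44 on the pan-macrophage reference without that replicate. In Casp11-/- mice, Slc11a1 became 0.52 after removal of the top 1%, 0.47 on protein-coding genes with or without that replicate and 0.20 with weights, and Ftl1 became 0.12 on protein-coding genes with or without it. Over both genotypes, Tfrc became 0.026 with a pseudocount of 0.1, 0.94 after removal of the top 1%, 0.46 on protein-coding genes and 0.33 on these without that replicate. Slc48a1 and Blvrb became 0.42 and 0.34 after removal of the top 1%. Slc11a1 became -0.063 and Fth1 -0.13 on the pan-macrophage reference. Fth1 and Ftl1 became -0.52 and -0.44 with weights, and -0.69 and -0.50 on the pan-macrophage reference without that replicate.

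Leaving out each library in turn, from the 12 or from the 11 without WT-NCD replicate 3, gave 0 to 2 members and 0 to 3 pathway genes in WT, 0 to 5 and 0 to 23 in Casp11-/-, and 0 to 4 and 0 to 17 over both genotypes, with the highest counts in Casp11-/- and over both when Casp11-/- NCD replicate 2 was also out. Where this left a group with 1 library, it was assumed to vary like the others. The shares of all genes called in these fits are not given here, so the counts are not read as particular to these genes. Log2 fold changes in WT then ranged from -0.79 to 2.40 for Fth1, -0.60 to 2.81 for Ftl1, -0.11 to 1.52 for Slc11a1, -0.77 to 0.34 for Slc48a1, -0.96 to 0.12 for Blvrb and -0.13 to 0.95 for Tfrc. For Slc11a1 in Casp11-/- they ranged from -1.05 to 0.81. Over both genotypes they ranged from -0.74 to 0.85 for Fth1, -0.53 to 1.17 for Ftl1, -0.27 to 0.89 for Slc11a1 and -0.54 to 0.25 for Tfrc.

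Same-numbered libraries of 2 groups correlated in their deviations from -0.64 to 0.47, and 7 of 18 such correlations were over 0.1, as were 8 of 15 without WT-NCD replicate 3 (-0.33 to 0.47). Libraries of different numbers were not compared, so these values cannot tell whether replicate numbers pair the samples. The replicate block on 12 libraries gave 0 members over both genotypes. The replicate block without WT-NCD replicate 3 gave 2 members in WT, 2 members and 2 pathway genes in Casp11-/-, and 4 and 11 over both, with the shares of all genes called not given here. In that fit Tfrc, Fth1 and Ftl1 in WT became -0.20, -0.69 and -0.46, and Slc11a1, Fth1 and Ftl1 over both genotypes became -0.034, -0.69 and -0.46.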
